A study of Mus musculus with 6 samples.

Results

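The genes described here are 9 type I interferon antiviral genes, Ifit1, Ifit2, Ifit3, Isg15, Mx1, Oas1a, Oas2, Irf7 and Usp18. They were taken by symbol, and each has a row among the 16426 genes of the authors' deposited table and was tested there, among 14114 genes in all. Liver RNA of male C57/BL mice was sequenced in bulk, with 3 samples labelled as liver fibrosis after 20% CCl4 (carbon tetrachloride, a solvent toxic to hepatocytes) for 10 weeks, and 3 labelled as normal liver given saline. The authors' deposited table compares 3 libraries named ly_A with 3 named ly_B. Neither name occurs in the labels of a sample, so which labelled group each name stands for was not inferred, and no difference below is stated as an effect of CCl4. For the same reason the values of single libraries entered no calculation, and levels, library depth and the liver markers' abundance were not examined. The labels number the replicates without saying that each is a separate animal. The p-values therefore set each difference against the spread between libraries, as the authors modelled it.

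Type I interferons bind a receptor on nearly all nucleated cells, and the kinases JAK1 and TYK2 then activate a complex of STAT proteins and IRF9 called ISGF3. ISGF3 binds the interferon-stimulated response element (ISRE) in the promoters of antiviral genes. The products block steps of viral growth: IFIT proteins bind foreign RNA and hinder its translation, OAS enzymes make oligoadenylates that lead to the breakdown of RNA, and ISG15 is a ubiquitin-like protein joined to other proteins. IRF7 drives further interferon production, and USP18 removes ISG15 from proteins and dampens the receptor. In liver, hepatocytes, Kupffer cells and endothelial cells can all respond to interferon.

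Promoter sequences of the members are shown for the element that ISGF3 binds, with and without a match. RefSeq sequences of 300 bases (250 before and 50 after a transcript start, build GRCm38.p6) matched 6 members by symbol, in 7 windows, since Ifit2 has more than 1 start. Each window was searched on both strands for the ISRE core GAAANNGAAA, where N is any base. The core was found for 4 members, Isg15, Oas1a, Ifit1 and Ifit3, and in neither window of Ifit2 nor in that of Irf7. Of all 32851 RefSeq promoter windows, 3.44% hold it. The windows are chr19:34640639-34640938 on the plus strand for Ifit1, chr19:34583279-34583578 on the plus strand for Ifit3, chr4:156200769-156201068 on the minus strand for Isg15, chr5:120907476-120907775 on the minus strand for Oas1a and chr7:141266375-141266674 on the minus strand for Irf7. They are printed 5′ to 3′ along the gene, with each ISRE core, read on either strand, in capitals, and Irf7 is shown as a member without the core.
Ifit1: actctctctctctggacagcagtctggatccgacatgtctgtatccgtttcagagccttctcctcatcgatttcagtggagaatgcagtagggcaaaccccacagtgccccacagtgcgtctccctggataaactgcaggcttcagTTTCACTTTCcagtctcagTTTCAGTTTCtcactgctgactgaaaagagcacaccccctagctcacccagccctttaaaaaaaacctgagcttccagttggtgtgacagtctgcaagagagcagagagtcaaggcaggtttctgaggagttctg
Ifit3: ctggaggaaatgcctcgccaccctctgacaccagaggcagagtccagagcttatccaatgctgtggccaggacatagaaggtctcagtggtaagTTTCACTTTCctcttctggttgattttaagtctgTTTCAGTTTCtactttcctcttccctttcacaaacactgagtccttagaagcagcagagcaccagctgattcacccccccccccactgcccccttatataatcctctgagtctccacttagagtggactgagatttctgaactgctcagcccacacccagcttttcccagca
Isg15: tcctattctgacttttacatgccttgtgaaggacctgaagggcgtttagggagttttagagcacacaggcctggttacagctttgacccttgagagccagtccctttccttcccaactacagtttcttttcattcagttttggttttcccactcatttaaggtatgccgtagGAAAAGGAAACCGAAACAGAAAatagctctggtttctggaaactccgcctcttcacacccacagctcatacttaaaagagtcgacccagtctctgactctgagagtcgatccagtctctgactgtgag
Oas1a: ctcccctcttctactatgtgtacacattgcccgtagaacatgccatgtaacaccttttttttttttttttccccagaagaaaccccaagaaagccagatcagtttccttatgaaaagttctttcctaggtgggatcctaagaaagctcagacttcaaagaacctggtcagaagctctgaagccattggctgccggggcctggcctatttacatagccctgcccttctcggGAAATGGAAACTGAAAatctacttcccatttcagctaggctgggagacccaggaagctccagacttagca
Irf7: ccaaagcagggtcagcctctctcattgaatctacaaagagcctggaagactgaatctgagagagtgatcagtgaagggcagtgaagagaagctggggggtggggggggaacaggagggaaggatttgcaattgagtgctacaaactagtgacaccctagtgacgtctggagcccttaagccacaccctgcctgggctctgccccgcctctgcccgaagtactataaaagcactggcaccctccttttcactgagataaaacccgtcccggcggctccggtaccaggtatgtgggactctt

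Ifit1 and Ifit3 each carry 2 separate cores on the opposite strand, beginning at positions -104 and -85 relative to the start in Ifit1 and at -156 and -122 in Ifit3. In Isg15, 3 overlapping cores form 1 unbroken run that begins at position -78. In Oas1a, 2 overlapping cores begin at positions -20 and -14. The gamma-activated site TTCNNNGAA, which reads the same on both strands and is bound by pairs of STAT proteins, was found once in Oas1a and once in a window of Ifit2, and 8.3% of all windows hold it. These matches are matches of letters only.

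All 9 members had a positive log2 fold change of ly_A over ly_B in the authors' deposited table, and 6 of them were called higher in ly_A at an adjusted p under 0.05. None was called higher in ly_B. Among all tested genes, 18.1% were called higher in ly_A and 17.7% higher in ly_B in the authors' deposited table. The members' median log2 fold change was 1.30, against 0.07 over all tested genes, of which 53.1% had a positive value. The members were chosen with earlier results of these data known, so these counts describe them and support nothing further. In bulk tissue, fewer cells that express a gene and less of its RNA per cell cannot be told apart.

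**Figure D1:**
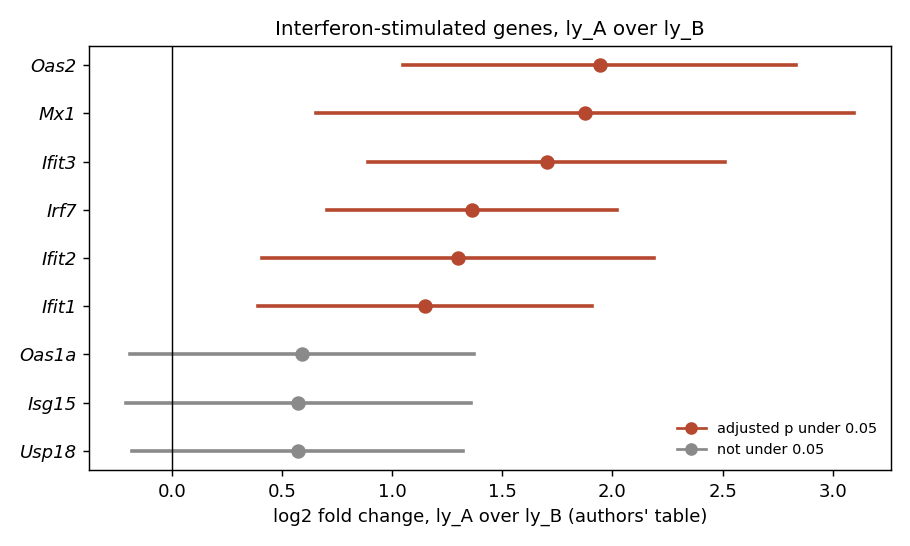
Log2 fold change of ly_A over ly_B (horizontal axis) for each of the 9 genes, from the authors' deposited table. Bars show the 95% interval implied by the deposited p if it is a two-sided Wald p. The 6 called genes lie between 1.15 and 1.94, and the 3 others between 0.57 and 0.59 with bars that cross 0.

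The errors given with these values are those implied by the deposited p-values if they are two-sided Wald p-values of the deposited fold changes, which is DESeq2's usual test. They were not computed from libraries. The implied standard errors ran from 0.34 for Irf7 to 0.62 for Mx1 on the log2 scale.

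All 3 members that encode RNA-binding IFIT proteins were higher in ly_A. Ifit3, which stabilises IFIT1 in human cells, had the largest difference of these, with a log2 fold change of 1.70 (3.25-fold, implied standard error 0.41, adjusted p = 0.000297) in the authors' deposited table. Ifit2 stood at 1.30 (2.46-fold, implied standard error 0.45, adjusted p = 0.0151) in the authors' deposited table. Ifit1, which binds RNA whose cap lacks a methyl mark, stood at 1.15 (2.22-fold, implied standard error 0.39, adjusted p = 0.0116) in the authors' deposited table. The implied 95% intervals of the 3 IFIT genes overlap, and the differences between these genes were not tested. Of all tested genes, 7.31% had a log2 fold change at least as large as that of Ifit3, 12.3% as that of Ifit2 and 14.9% as that of Ifit1.

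The OAS enzymes were split. Oas2 had the largest difference of the 9 members, with a log2 fold change of 1.94 (3.84-fold, implied standard error 0.45, adjusted p = 0.000162) in the authors' deposited table, a size that 5.6% of tested genes reached. Oas1a stood at 0.59 (1.51-fold, adjusted p = 0.246) in the authors' deposited table and was not called, with an implied 95% interval of -0.19 to 1.37. That interval overlaps the interval of Oas2, 1.05 to 2.83, and the difference between these genes was not tested.

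Mx1 encodes a dynamin-like GTPase that blocks influenza and related viruses in mice with a working copy. Its log2 fold change was 1.88 (3.67-fold, implied standard error 0.62, adjusted p = 0.0103) in the authors' deposited table. It has the widest implied interval of the 9 members, 0.65 to 3.10. RefSeq annotates Mx1 as a transcribed pseudogene in its C57BL/6J assembly, since many laboratory strains carry a defective copy, so the value is one of transcript only.

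Irf7, the transcription factor that amplifies interferon production, was 2.57-fold higher in ly_A, with a log2 fold change of 1.36 (implied standard error 0.34, adjusted p = 0.000358) in the authors' deposited table. The ubiquitin-like modifier and its protease were not called. Isg15 stood at 0.57 (1.49-fold, adjusted p = 0.263) and Usp18 at 0.57 (1.49-fold, adjusted p = 0.243) in the authors' deposited table. Their implied 95% intervals, -0.21 to 1.36 for Isg15 and -0.18 to 1.32 for Usp18, include no difference as well as one above 2-fold. At a stricter adjusted p of 0.01, 3 members were called, Oas2, Ifit3 and Irf7, all higher in ly_A, against 12.3% of all tested genes called higher in ly_A and 12.7% higher in ly_B at that threshold. All 9 implied intervals share the range from 1.05 to 1.32, and no difference between members was tested.

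**Figure D2:**
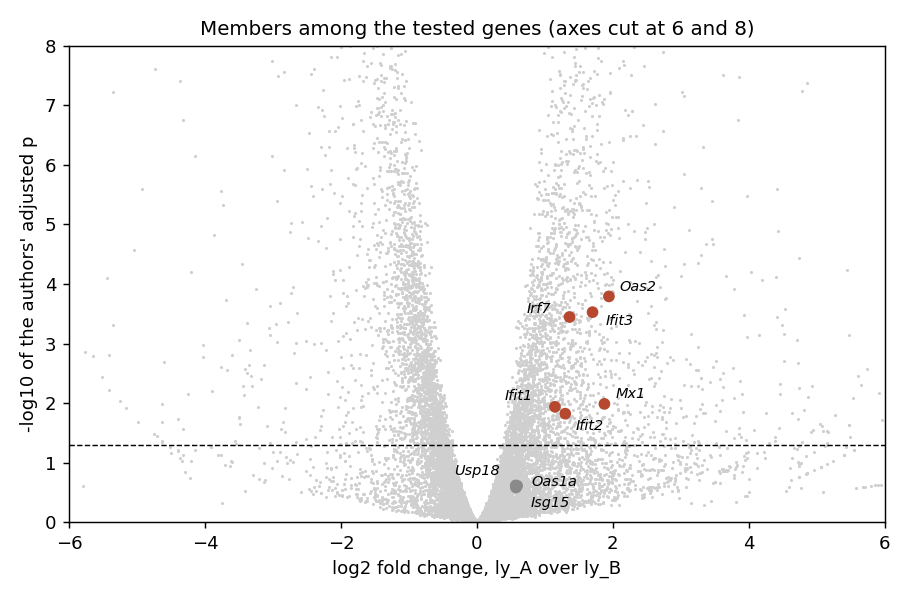
Log2 fold change of ly_A over ly_B (horizontal) against -log10 of the adjusted p (vertical) for the tested genes of the authors' deposited table, in grey, with the 9 members named. The dashed line is an adjusted p of 0.05, 6 members lie above it, and 495 tested genes lie outside the axes.

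The presence of the ISRE core did not follow the calls among the 6 members with a promoter window. Isg15 and Oas1a hold overlapping cores close to the start and were not called, while Irf7 and Ifit2 hold none in these windows and were called. Ifit1 and Ifit3 hold cores and were called. With 6 genes no test was made.

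The IFIT, OAS and MX members lie in gene clusters, and every other tested gene of these clusters had a positive value in the authors' deposited table. On chromosome 19 the order by RefSeq is Ifit2, Ifit3, Ifit1bl1, Ifit3b, Ifit1bl2 and Ifit1. Ifit3b was higher in ly_A with a log2 fold change of 1.97 (adjusted p = 0.00188) in the authors' deposited table. Ifit1bl1 stood at 1.24 without a call (adjusted p = 0.235), and Ifit1bl2 was not tested in the authors' deposited table. On chromosome 5, Oas2 stands at one end of a stretch of OAS genes and Oas1a near the other. Oas1b, at 1.79 (adjusted p = 0.000702), and Oas1g, at 1.51 (adjusted p = 0.00813), were higher in ly_A in the authors' deposited table. Oas3 at 1.25 (adjusted p = 0.0649) and Oas1c at 1.48 (adjusted p = 0.0583) were not called in the authors' deposited table. RefSeq also annotates Oas1b as a transcribed pseudogene in C57BL/6J. Mx2, beside Mx1 on chromosome 16 and also annotated as a transcribed pseudogene, was higher in ly_A at 1.03 (adjusted p = 0.0349) in the authors' deposited table. Of the 3 tested IFIT and MX genes that are not members, 2 were called higher in ly_A, and 0 in ly_B, in the authors' deposited table. Across all tested genes there, the shares were 18.1% and 17.7%.

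**Figure D3:**
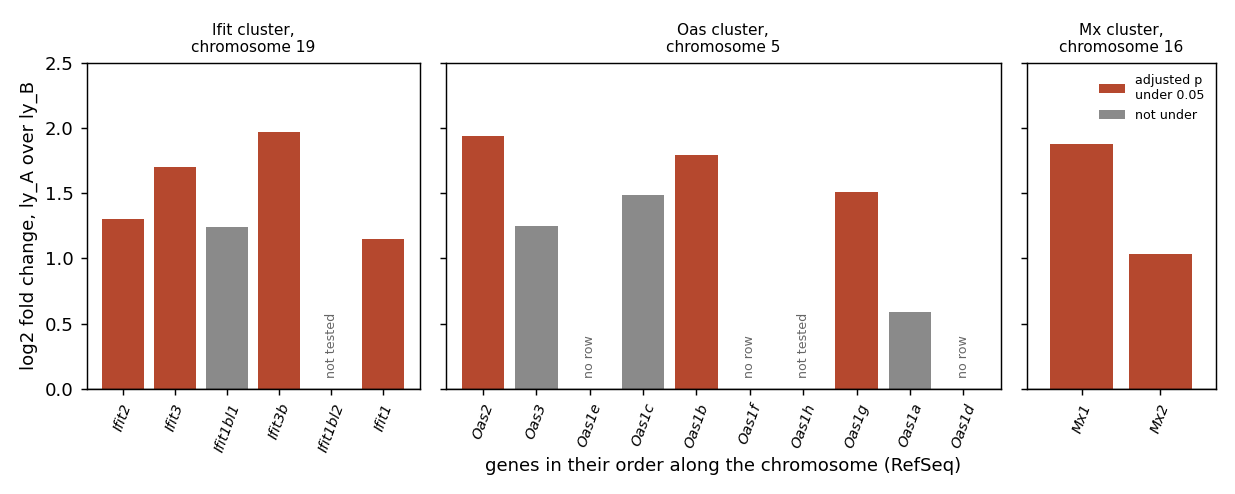
Log2 fold change of ly_A over ly_B (vertical axis, the authors' deposited table) for the Ifit, Oas and Mx genes in their order along the chromosome by RefSeq. Red bars passed an adjusted p of 0.05, grey bars did not, and genes without a bar were not tested or have no row; all drawn bars are positive, from 0.59 for Oas1a to 1.97 for Ifit3b.

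Some of these values cannot be assigned to 1 copy with confidence. In GENCODE M21 transcripts, 51.2% of the 50-base stretches of Ifit3 occur also in Ifit3b, and 57.6% of those of Oas1a occur also in Oas1g. The share was 7.13% for Ifit1, 3.96% for Isg15 and 3.91% for Mx1. No stretch of Ifit2, Oas2, Irf7 or Usp18 was found in another gene. How the authors counted reads that match several genes is not given in the sources used here, so the single values of Ifit3, Ifit3b, Oas1a and Oas1g are uncertain.

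Genes of the interferon receptors were called in both directions, and of the kinase genes Jak1 and Tyk2 only Jak1 was called, higher in ly_B. No interferon ligand was tested in the authors' deposited table: Ifnb1, Ifnk and Ifng have rows with an adjusted p of 1. Of 6 tested receptor genes, 1 was higher in ly_A and 2 were higher in ly_B in the authors' deposited table. For comparison, 18.1% of all tested genes there were called higher in ly_A and 17.7% higher in ly_B. Ifnar2, a chain of the type I receptor, was higher in ly_A at 0.52 (adjusted p = 0.0302), whereas the partner chain Ifnar1 stood at -0.34 without a call (adjusted p = 0.106) in the authors' deposited table. The type II receptor chains Ifngr1, at -1.12 (adjusted p = 0.000118), and Ifngr2, at -1.10 (adjusted p = 3.84e-05), were higher in ly_B in the authors' deposited table.

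Among the genes Jak1, Tyk2, Stat2 and Irf9, 1 was higher on each side in the authors' deposited table. Beside the counts in this paragraph, 18.1% of all tested genes were called higher in ly_A and 17.7% higher in ly_B. Stat2 was higher in ly_A at 0.88 (adjusted p = 0.00285) and Jak1 was higher in ly_B at -0.54 (adjusted p = 0.00497) in the authors' deposited table. Irf9 at 0.17 (adjusted p = 0.587) and Tyk2 at -0.05 (adjusted p = 0.908) were not called in the authors' deposited table. Irf9 is itself a known interferon-stimulated gene. Of 9 other interferon regulatory factor genes and their binding partners, 4 were higher in ly_A and 0 in ly_B in the authors' deposited table, with a median of 0.73. They include Irf1 at 1.03 (adjusted p = 0.00364), Irf2 at 0.88 (adjusted p = 0.00115) and Irf8, a factor of myeloid cells, at 0.81 (adjusted p = 0.0282) in the authors' deposited table.

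Of 10 feedback inhibitors, 2 were higher in ly_A and 1 was higher in ly_B in the authors' deposited table, with a median of 0.22. The shares over all tested genes there were 18.1% in ly_A and 17.7% in ly_B. The phosphatase genes Ptpn6 at 0.78 (adjusted p = 0.0051) and Ptpn11 at -1.46 (adjusted p = 3.58e-07) went opposite ways, and the forkhead factor gene Foxo3 stood at 0.78 (adjusted p = 0.018) in the authors' deposited table. Socs1, a JAK inhibitor induced by interferons, stood at 1.19 without a call (adjusted p = 0.11) in the authors' deposited table.

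Of 13 tested genes listed as nucleic acid sensors or related innate immune genes, 4 were higher in ly_A and 0 in ly_B in the authors' deposited table, with a median of 0.82. Beside this count and that of the adaptors below, 18.1% of all tested genes were called higher in ly_A and 17.7% higher in ly_B. Ddx60 at 1.47 (adjusted p = 0.0062), Dhx58, the regulatory member of the RIG-I family, at 1.03 (adjusted p = 0.0111) and Tlr3, a receptor for double-stranded RNA, at 0.96 (adjusted p = 0.0287) had the largest differences of the called genes of this list in the authors' deposited table. The remaining called gene was Nlrc5, at 0.93 (adjusted p = 0.00052), which with Nod2, at -0.30 without a call (adjusted p = 0.846), is a related gene rather than a nucleic acid sensor. The RNA sensors Ddx58 (RIG-I) at 0.21 (adjusted p = 0.621) and Ifih1 (MDA5) at -0.34 (adjusted p = 0.313) were not called in the authors' deposited table. The adaptors and kinases below the sensors were called both ways, 4 of 18 higher in ly_A and 6 higher in ly_B in the authors' deposited table, with a median of -0.37. Unc93b1, which carries Toll-like receptors to endosomes, was higher in ly_A at 1.04 (adjusted p = 0.000111) in the authors' deposited table. The signalling adaptors Traf3 at -1.21 (adjusted p = 0.000106) and Traf6 at -1.15 (adjusted p = 1.09e-05) were higher in ly_B in the authors' deposited table.

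Further OAS genes were called in 1 direction. Of 6 tested, 2 were higher in ly_A and 0 in ly_B in the authors' deposited table, the Oas1b and Oas1g genes described above, with a median of 1.37. Across all tested genes, 18.1% were called higher in ly_A and 17.7% higher in ly_B. Oasl2 at 0.89 (adjusted p = 0.0737) and Oasl1 at -0.54 (adjusted p = 0.157) were not called in the authors' deposited table.

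Of 6 genes listed for ISG15 conjugation or as related ligases, 2 were higher in ly_A and 2 in ly_B in the authors' deposited table. The shares over all tested genes there were 18.1% and 17.7%. Uba7, the enzyme that activates ISG15, was 3.26-fold higher in ly_A at 1.71 (adjusted p = 3.92e-05), and Herc6, the main mouse ISG15 ligase, stood at 0.997 (adjusted p = 0.00475) in the authors' deposited table. Ube2l6, the conjugating enzyme between them, stood at 0.34 without a call (adjusted p = 0.248) in the authors' deposited table. The 2 genes higher in ly_B were the related ligase genes Herc3 and Herc4. Herc3 stood at -1.73 (adjusted p = 8.75e-06) and Herc4 at -0.45 (adjusted p = 0.0333) in the authors' deposited table.

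Of 64 other antiviral and interferon-stimulated genes, 23 were higher in ly_A and 4 were higher in ly_B in the authors' deposited table, with a median log2 fold change of 0.70. Across all tested genes, 18.1% were called higher in ly_A and 17.7% higher in ly_B. Of these genes, 9 also stand in another list above. Mndal at 1.92 (adjusted p = 2.3e-06) and Tor3a at 1.90 (adjusted p = 6.29e-06) had the largest differences of the genes called higher in ly_A in the authors' deposited table. Ifi44 at 1.12 (adjusted p = 0.0186), Ifitm3, which blocks viral entry, at 0.85 (adjusted p = 0.000274), and the tetherin gene Bst2 at 0.69 (adjusted p = 0.00686) were also higher in ly_A in the authors' deposited table. Rsad2, which encodes viperin, stood at -0.45 without a call (adjusted p = 0.414) in the authors' deposited table. The 4 genes higher in ly_B, named after their values were seen, were Ifi27l2b at -2.28 (adjusted p = 2.51e-06), Usp25 at -1.16 (adjusted p = 4.52e-05), Eif2ak2 at -0.85 (adjusted p = 0.00278) and Lgals3bp at -0.66 (adjusted p = 0.028) in the authors' deposited table. Eif2ak2 encodes PKR, a kinase that stops translation on double-stranded RNA. Over all the interferon lists, 41 of 129 tested genes were higher in ly_A and 16 were higher in ly_B in the authors' deposited table, with a median of 0.53. The matching shares over all tested genes were 18.1% and 17.7%, with a median of 0.07.

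**Figure D4:**
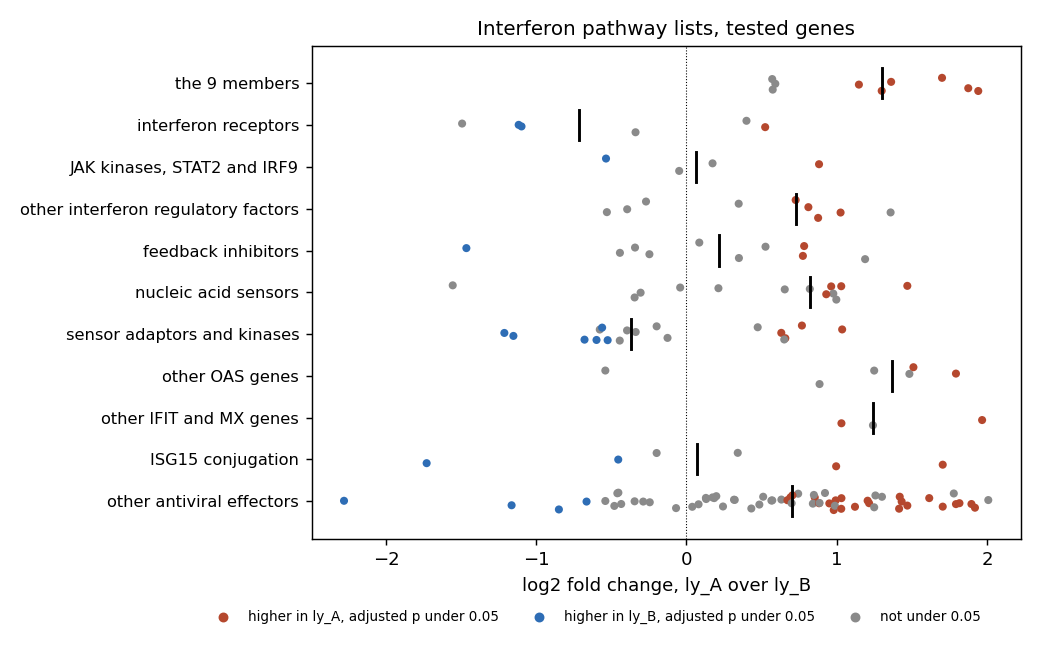
Log2 fold change of ly_A over ly_B (horizontal axis, the authors' deposited table) of each tested gene in the 9 members and in the interferon lists (rows), with the median of each list as a black bar. Red points were called higher in ly_A, blue points higher in ly_B, and grey points were not called; the medians run from -0.72 for the receptors to 1.37 for the other OAS genes.

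Markers of several leukocyte types also differed between ly_A and ly_B, and their part in the members' differences was not tested. Beside the marker counts below, 18.1% of all tested genes were called higher in ly_A and 17.7% higher in ly_B. Of 8 Kupffer cell and macrophage markers, 5 were higher in ly_A and 0 in ly_B in the authors' deposited table, with log2 fold changes from -0.20 to 3.04, led by Timd4 at 3.04 (adjusted p = 2.6e-09) and Clec4f at 2.63 (adjusted p = 5.77e-13). The 3 not called there were Adgre1 at 0.33 (adjusted p = 0.503), Marco at 0.05 (adjusted p = 0.936) and Cd68 at -0.20 (adjusted p = 0.684). Of 4 B cell markers 3, and of 6 T and NK cell markers 3, were higher in ly_A in the authors' deposited table, with positive values for all of them, from 1.29 to 1.67 for B cells and from 1.17 to 2.62 for T and NK cells. Of 3 markers of all leukocytes, 1 was called, Ptprc, higher in ly_A at 0.86 (adjusted p = 0.0428), while Laptm5 stood at -0.07 (adjusted p = 0.882) and Coro1a at -0.06 (adjusted p = 0.922), in the authors' deposited table. For monocytes, 1 of 6 markers was higher on each side, Plac8 in ly_A at 1.02 (adjusted p = 0.0488) and Itgam in ly_B at -2.14 (adjusted p = 0.000411), in the authors' deposited table. Of 7 tested markers of plasmacytoid dendritic cells, which are strong interferon producers, 0 were higher in ly_A and 1, Ly6d, was higher in ly_B at -3.32 (adjusted p = 0.00518) in the authors' deposited table. That list ran from -3.32 to 2.86, the value of Klk1 (adjusted p = 0.179), with a median of 0.76 and 4 of 7 positive values. None of 5 tested neutrophil markers was called in the authors' deposited table, and 0 had an unadjusted p under 0.05 there, with values from 0.12 to 0.94. Of 5 tested hepatocyte markers, 3 were higher in ly_A and 1 in ly_B in the authors' deposited table, with a median of 0.82. Apoa1 at 1.22 (adjusted p = 0.00029) and Ttr at 1.07 (adjusted p = 6.96e-05) were higher in ly_A, and Apob at -1.07 (adjusted p = 1.34e-06) was higher in ly_B, in the authors' deposited table.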

How the data were processed

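Per the submitters' processing notes the authors used DESeq2 and build mm9, with no version given. Which aligner, counter and annotation they used is not given in the sources used here. As for direction, the deposited log2 fold change is read as ly_A over ly_B, following the file's name, and by eye, in the first rows, positive values go with higher values in ly_A. The deposited p-values and adjusted p-values are the authors' own. Of 16426 rows, 2312 have an adjusted p of 1. For the remaining 14114 the deposited value equals a Benjamini-Hochberg adjustment over those rows to within a relative difference of 9.47e-13, and only these were treated as tested. Called means an adjusted p under 0.05. The 18 columns of single libraries match no sample's labels and entered no calculation, so no depth and no spread over samples is given.

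The implied standard error is the absolute log2 fold change divided by the normal quantile of the deposited p. Its code and that of the Benjamini-Hochberg adjustment were checked on simulated Wald p-values. That check cannot show whether the deposited p is a Wald p. The rule for naming took all members, genes fixed by name in each list, and, per list, the 3 called genes that differed most. With fewer than 2 called, it took the 2 of smallest p. Outside this rule, the text also names Ifnb1, Ifnk, Ifng, Ifit1bl1, Ifit1bl2, Oas1c, Nlrc5, Nod2, Herc4, Usp25, Lgals3bp, Adgre1, Cd68, Marco and Coro1a. Those genes were named with their values known. Not every gene that this rule takes is reported here. The members and lists were chosen with earlier results of these data known. Python 3.11.15, pandas 2.3.3 and scipy 1.17.1 were used. Sequences are from RefSeq GRCm38.p6 and GENCODE M21, which differ in build from mm9 and were used for names, order and letters only. Alternatives tried were a stricter adjusted p (0.01), a required 2-fold difference, Benjamini-Hochberg adjustment across every row, and subtraction of the median of tested genes.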

Additional observations from a re-analysis of the deposited data

How the results depend on the processing

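At an adjusted p under 0.01, 3 of the 9 members were called higher in ly_A instead of 6, since Ifit1, Ifit2 and Mx1 no longer passed, while Oas2, Ifit3 and Irf7 did. Over all tested genes that threshold called 1736 higher in ly_A and 1790 higher in ly_B. Requiring a 2-fold difference as well, or adjusting over all 16426 rows, called 6 members in each case, and the adjustment over all rows called 2460 genes higher in ly_A and 2404 higher in ly_B. With the 2-fold requirement, the counts over all tested genes were 1542 higher in ly_A and 1108 higher in ly_B, against 2554 and 2499 without it. Subtracting the median of tested genes (0.07) changed no member's direction. Among the counts of the other lists and the calls of single members, 12 of 31 moved by over 1.5 times with the 2-fold requirement, all of them to lower list counts. At an adjusted p under 0.01, 6 list counts did so, among them the other antiviral genes higher in ly_A, with 15 called instead of 23. No paired analysis was possible because the library columns carry no name that ties them to the labelled replicate numbers, and for the same reason no replicate could be left out. Without the library columns, the depth behind each gene and the spread between animals were not examined.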

Other observations

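The ISRE core was also looked up for the tested genes that match a RefSeq promoter window by symbol, a description added after the data were seen. Tested genes without such a window, among them the members Mx1, Oas2 and Usp18, are not covered. Of 431 tested genes with the core in a RefSeq promoter window, 24.8% were called higher in ly_A and 12.5% higher in ly_B in the authors' deposited table. These genes include the members Ifit1, Ifit3, Isg15 and Oas1a, and genes of the interferon lists were not left out, so the shares are not separate from the values above. Of 10575 tested genes whose windows hold no core, 17.6% were called higher in ly_A and 17.9% higher in ly_B. The median log2 fold change was 0.32 for genes with the core and 0.05 for genes without it. For the gamma-activated site, 19.1% of 930 genes with the site and 17.8% of 10076 without it were called higher in ly_A, and 15.9% and 17.9% higher in ly_B, with medians of 0.10 and 0.05. No test was made of these shares, since genes are not independent replicates.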
